A study of Mus musculus with 6 samples.

Results

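The genes described here supply and protect the deoxynucleotides from which DNA is built. They are 9 mouse genes, Rrm1, Rrm2, Rrm2b, Tyms, Tk1, Tk2, Dck, Dguok and Dut, chosen by name out of 38924 genes in the count table, and all 9 were among the 15525 genes tested. RNA was sequenced from 6 samples of CD49f-positive epidermal cells, sorted by flow cytometry from skin cell suspensions. CD49f, also called integrin alpha 6, anchors keratinocytes of the basal layer to the basement membrane. Every sample, controls included, was homozygous for a floxed allele of Rnaseh2b. In the 3 Cre-positive samples K14-Cre was present as well, so that Cre is made under the control of the keratin 14 promoter, which is active in basal keratinocytes and not in the immune cells or melanocytes that a sort may also hold. The 3 Cre-negative samples carried no Cre. Replicate numbers used here follow the order of the deposited samples within each group, so equal numbers do not mark counterparts. Age, strain and sex are not stated in the labels, and neither is the animal each library came from, so the p-values reflect how much these libraries vary, which may in part be technical. The comparison is of transcripts in these cells with and without K14-Cre, which acts on the floxed Rnaseh2b allele. No sample carried Cre without that allele, so effects of Cre itself and of lowered Rnaseh2b cannot be told apart. RNase H2 removes ribonucleotides that DNA polymerases have put into DNA in place of deoxynucleotides.

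Ribonucleotide reductase makes deoxynucleotides from ribonucleotides. Its large subunit is encoded by Rrm1, and its small subunit by Rrm2 in dividing cells or by Rrm2b, a gene known as a target of p53 that also serves cells outside S phase. Thymidylate synthase (Tyms) makes the thymine nucleotide from the uracil form, and the dUTPase Dut destroys dUTP, which keeps uracil out of DNA and yields the substrate of Tyms. Deoxynucleosides are recycled by kinases: Tk1 and Dck mainly in the cytosol, and Tk2 and Dguok in mitochondria. Rrm1, Rrm2, Tyms, Tk1 and Dut are known to be expressed most strongly around S phase, whereas the mitochondrial kinases are needed for mitochondrial DNA also in resting cells.

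None of the 9 genes rose or fell between the groups by the quasi-likelihood test of edgeR, with adjusted p-values from 0.128 to 0.821. Over all genes tested, 0.406% rose and 0.110% fell. All 9 log2 fold changes (Cre-positive minus Cre-negative) were below 0, from -0.48 to -0.09, with a median of -0.22 against -0.00478 over all tested genes, 51.0% of which lay below 0. The lowest value was that of Dut. Dguok, whose mean CPM differed by -24.0%, had the log2 fold change largest in size relative to its standard error. Only Dguok had an unadjusted p under 0.05, a limit passed downwards by 8.48% of all genes. Without Cre-positive replicate 3, 6 of the 9 log2 fold changes were below 0 (50.5% of all genes) and the median was -0.10. In that comparison 0 of the 9 passed the adjusted threshold, against 2.65% of all genes, and 2 were lower at an unadjusted p under 0.05, against 8.86%.

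Libraries held between 22948779 and 31718094 counts. Rnaseh2b itself had 172, 90 and 69 counts in Cre-positive replicates 1, 2 and 3 and 543, 504 and 570 in the Cre-negative ones, which fits the labels. Basal keratinocyte markers were abundant in every library: the 7 markers summed to 16130 to 18063 CPM (counts scaled per 1000000) in Cre-positive and 15545 to 17568 CPM in Cre-negative samples. The suprabasal markers summed to 104155 to 140897 and 82963 to 104867 CPM. The 6 of them that were tested had a median log2 fold change of 0.37, with 0 past the threshold. All 5 melanocyte markers rose by edgeR, with log2 fold changes from 0.82 for Dct to 1.57 for Mlana, and summed to 568 to 675 against 319 to 368 CPM. The phagocyte markers summed to 86.7 to 112 against 65.9 to 74.2 CPM, with a median log2 fold change of 0.62. The most abundant of them, Csf1r, did not share this (-0.04, SE 0.14, groups overlapping). Of the 5, 1 rose, the lysozyme gene Lyz2 (1.33, SE 0.17, edgeR adjusted p = 0.0368). The hair follicle markers, led by Krt15, summed to 2687 to 2908 against 4198 to 4680 CPM, with a median log2 fold change of -0.36 and 0 of 8 past the threshold. Of the Langerhans cell markers 4 of 5 were tested, whereas Cd207 lay under the count filter and was not. The tested ones, H2-Ab1, Cd74, H2-Aa and Epcam, had a median of -2.36. Of these H2-Ab1, a gene of antigen presentation, fell (-2.29, SE 0.32, edgeR adjusted p = 0.0400). Their sum, 159 to 166 against 214 to 249 CPM, is mostly Epcam, which epithelial cells also express and which had -0.11. The 5 T cell markers had a median of -1.11 with 0 past the threshold, and summed to 18.5 to 29.2 against 28.3 to 33.0 CPM. Most of that sum is Thy1, at a mean of 17.6 against 18.4 CPM, which had -0.07 (SE 0.23) with overlapping groups. Fibroblast markers, led by Col3a1, and endothelial markers, led by Kdr, overlapped between the groups (176 to 1368 against 196 to 811 CPM, and 2.04 to 22.6 against 2.85 to 20.0 CPM). The most abundant markers of the keratinocyte layers were Krt5 and Krt10, and no marker of any list was at 0 in every library. In bulk RNA of this kind, fewer cells of a type and less RNA per cell cannot be told apart, and the part of these other cells in the results below was not tested.

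Cre-positive replicate 3 stood apart from the other libraries in genes of the cell cycle. The 27 genes of an S phase list (none of them among the 9) lay 0.79 below the Cre-negative mean in log2 CPM there, against -0.10 and -0.08 in Cre-positive replicates 1 and 2 and -0.14 to 0.07 in the controls. A list of 16 genes of G2 and mitosis lay at -0.88 in that library, against 0.01 and 0.12 in the other Cre-positive ones. The suprabasal keratinocyte list was highest in it, at 0.83, against 0.13 and 0.33. The basal keratinocyte list was also highest in Cre-positive replicate 3, at 0.32, against 0.05 and -0.02 in replicates 1 and 2 and -0.03 to 0.02 in the controls. By the levels of Xist and of Y-linked genes, Cre-positive replicate 3 was also the only female library of its group, whereas 2 of the 3 Cre-negative libraries were female. All 9 genes had their lowest level of the 6 libraries in Cre-positive replicate 3, which held for 31.1% of all genes tested; this was noticed after the values were seen. Results are therefore given with and without it.

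**Figure D1:**
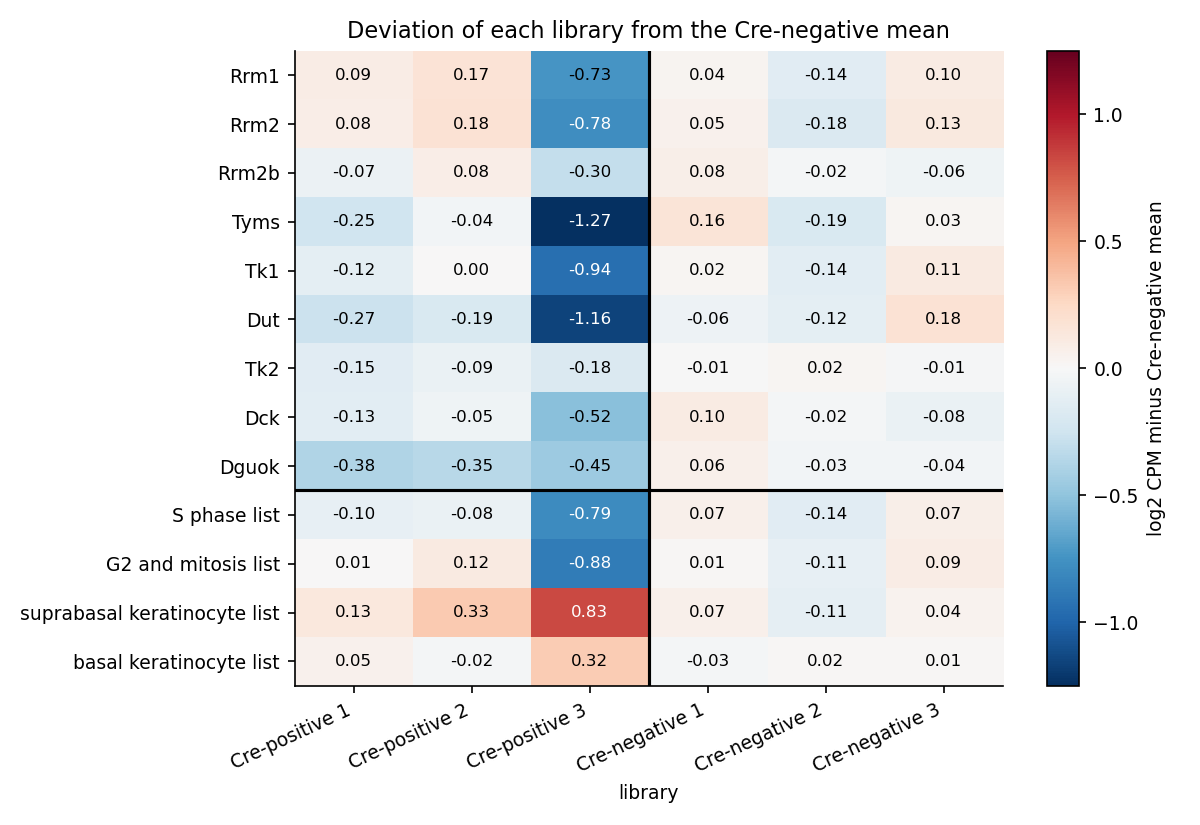
Each cell gives the log2 CPM of a gene, or the mean over a gene list, minus the mean of the 3 Cre-negative libraries, for 6 libraries in columns. The third Cre-positive column is lowest for all 9 genes and for the S phase list (-0.79) and highest for the suprabasal list (0.83).

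Promoter sequences were taken from RefSeq (GRCm38.p6, the assembly of mm10), where 8 of the 9 genes had an entry; Rrm2b had none. The 250 bases before the RefSeq start of each gene were searched on both strands for CCAAT, for the E2F letters TTTGGCGC, TTTCGCGC, TTCCCGCC or TTTCCCGC, and for TTTGAA, a motif of genes of the late cell cycle. For Dut this window starts at base 125247265 of chromosome 2, inside the counted gene, which begins at 125247190. The bases before the counted start of Dut were thus not searched. The windows of Dck and Tk1 run partly into the counted gene, as does that of Rrm2. The 2 subunit genes Rrm1 and Rrm2 are shown because their levels moved together most closely of all pairs, and Dguok because its groups were the most clearly apart. CCAAT and E2F matches are in capitals, each sequence runs 5′ to 3′ on the strand of the gene, and that of Rrm2 is printed only up to the first counted base.
Rrm1, chr7:102441445-102441694, plus strand: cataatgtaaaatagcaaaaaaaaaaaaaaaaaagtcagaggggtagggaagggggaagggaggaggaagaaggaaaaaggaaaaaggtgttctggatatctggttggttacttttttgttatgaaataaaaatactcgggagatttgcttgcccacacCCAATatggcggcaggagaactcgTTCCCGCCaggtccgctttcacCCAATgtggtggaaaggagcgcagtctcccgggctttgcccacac
Rrm2, chr12:24708004-24708240, plus strand: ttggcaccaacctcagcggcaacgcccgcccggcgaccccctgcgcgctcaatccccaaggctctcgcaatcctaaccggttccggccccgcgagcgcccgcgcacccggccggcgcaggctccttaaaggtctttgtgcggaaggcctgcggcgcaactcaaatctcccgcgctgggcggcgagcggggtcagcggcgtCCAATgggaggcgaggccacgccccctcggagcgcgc
Dguok, chr6:83506970-83507219, minus strand: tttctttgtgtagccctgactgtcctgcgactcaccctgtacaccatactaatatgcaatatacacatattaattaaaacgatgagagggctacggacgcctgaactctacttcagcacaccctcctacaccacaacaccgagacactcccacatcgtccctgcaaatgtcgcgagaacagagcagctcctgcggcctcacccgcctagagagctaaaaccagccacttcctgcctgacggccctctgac

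CCAAT was found in Rrm1, starting 91 and 45 bases before the RefSeq start, and in Rrm2, 50 bases before it. No match was found for the other 6 genes, where the window of Dut lay inside the counted gene. Of 32851 promoters of the same length, 33.9% held CCAAT. An E2F match was found in Rrm1, 67 bases before the start, and 2.92% of all promoters had one. TTTGAA or its reverse complement was found in Dck and Tk2, and in 15.99% of all promoters. A match describes letters in this window and not a bound site.

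Levels can be compared between genes only per length, here as CPM per kilobase (kb) of exon. In Cre-negative cells Rrm1 stood highest, at 30.3 ± 2.61 CPM per kb (SD, n = 3), followed by Rrm2 at 22.5 ± 2.40 and Dut at 14.9 ± 1.67. Dck had 10.9 ± 0.731, Tk1 9.01 ± 0.777 and Tk2 6.22 ± 0.0806 CPM per kb. Tyms at 5.25 ± 0.641 and Dguok at 5.11 ± 0.202 CPM per kb did not differ beyond their spread. Rrm2b was lowest, at 1.20 ± 0.0584 CPM per kb. In Cre-positive cells Tyms and Dguok, at 3.88 ± 1.53 and 3.89 ± 0.139 CPM per kb, were again next to each other. The length is that of all exons of a gene joined: 6437 bases for Rrm2b, 6089 for Tyms, 5198 for Tk1 and 2771 for Rrm2. Genes with long exons used in few transcripts therefore appear lower, and the Rrm2b share given below depends on these lengths.

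Rrm1 (ENSMUSG00000030978, chromosome 7, 102441695 to 102469771, plus strand of mm10, 19 exon blocks) encodes the large subunit of ribonucleotide reductase. It had 129, 136 and 72.6 CPM in Cre-positive replicates 1, 2 and 3 and 124, 110 and 130 CPM in the Cre-negative ones. The first 2 Cre-positive libraries lay within or just above the control range and the third well below it. By edgeR, Rrm1 differed by -0.11 on the log2 scale (SE 0.22, 95% interval -0.63 to 0.42, adjusted p = 0.821), and without Cre-positive replicate 3 by 0.13 (SE 0.08, edgeR adjusted p = 0.466).

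Rrm2 (ENSMUSG00000020649, chromosome 12, 24708241 to 24714146, plus strand, 9 exon blocks), the small subunit of dividing cells, followed the same course. It had 65.9, 70.6 and 36.2 CPM in Cre-positive and 64.4, 55.0 and 67.9 CPM in Cre-negative replicates 1, 2 and 3. The groups overlapped, with replicate 3 of the Cre-positive group lowest. Its log2 fold change by edgeR was -0.12 (SE 0.24, 95% interval -0.67 to 0.44, adjusted p = 0.818), and without that library it was 0.13 (SE 0.09, edgeR adjusted p = 0.516). The level of Rrm1 per kb was 127% to 130% of the summed level per kb of Rrm2 and Rrm2b in every library, so large and small subunit transcripts kept nearly the same proportion in all 6, including the one where each was lowest.

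Rrm2b (ENSMUSG00000022292, chromosome 15, 37923952 to 37961318, minus strand, 10 exon blocks), the alternative small subunit, had 7.35, 8.19 and 6.27 CPM in Cre-positive and 8.14, 7.60 and 7.42 CPM in Cre-negative replicates 1, 2 and 3. The groups overlapped and differed less than the spread of the Cre-positive libraries. The difference by edgeR was -0.09 on the log2 scale (SE 0.14, adjusted p = 0.759), and its 95% interval ran from 0.756-fold to 1.17-fold of the Cre-negative level. Without Cre-positive replicate 3 it was 0.01 (SE 0.13). These values rest on 132 to 239 counts per library. Among other genes tied to p53, edgeR gave 0.54 for Mdm2, whose product degrades p53 (SE 0.09, adjusted p = 0.0640; without Cre-positive replicate 3 it was 0.46 and passed, with an edgeR adjusted p of 0.0276), 0.44 for the p21 gene Cdkn1a (SE 0.13, adjusted p = 0.163) and -0.25 for Trp53 (SE 0.08, adjusted p = 0.196), all on the log2 scale. The difference between Rrm2b and these genes was not tested.

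Per kb, Rrm2b made up 4.58%, 4.76% and 6.94% of small-subunit transcripts in Cre-positive replicates 1, 2 and 3 and 5.16%, 5.61% and 4.50% in the Cre-negative ones. The groups overlapped, and the highest share was in the library with the lowest S phase list. The means were 5.42% ± 1.31 and 5.09% ± 0.562 (SD, n = 3 each), a difference of 0.334 percentage points (two-sided exact permutation test, p = 0.800; the smallest p this design allows is 0.10). Without Cre-positive replicate 3 the difference turned to -0.424 percentage points.

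**Figure D2:**
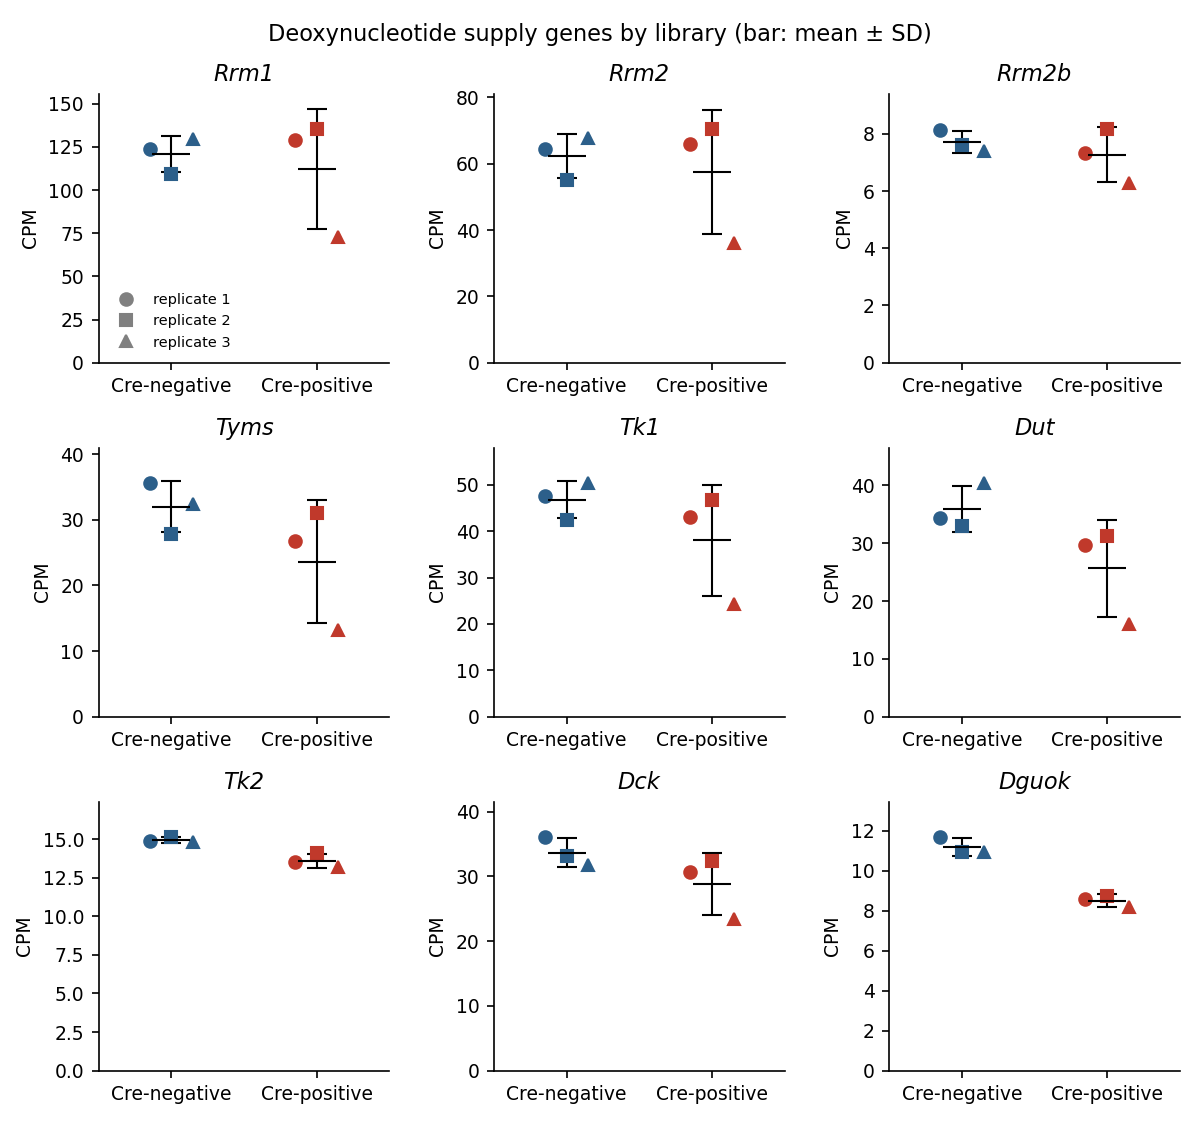
CPM of each of the 9 genes by group, with 1 point per library, a shape per replicate number and bars for the mean ± SD of 3 libraries; every axis starts at 0. The triangle of Cre-positive replicate 3 is far below the others for Rrm1, Rrm2, Tyms, Tk1 and Dut, and close to its group for Tk2 and Dguok.

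Of the thymine nucleotide genes, Tyms (ENSMUSG00000025747, chromosome 5, 30058202 to 30073617, minus strand, 8 exon blocks) had 26.7, 31.0 and 13.2 CPM in Cre-positive and 35.7, 27.9 and 32.4 CPM in Cre-negative replicates 1, 2 and 3. Cre-positive replicate 2 lay within the control range and replicate 3 lay far below it. For Tyms, edgeR gave a log2 fold change of -0.43 (SE 0.28, 95% interval -1.10 to 0.24, adjusted p = 0.441), and without replicate 3 it was -0.15 (SE 0.12, edgeR adjusted p = 0.538).

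Dut (ENSMUSG00000027203, chromosome 2, 125247190 to 125258608, plus strand, 9 exon blocks), the dUTPase gene, had 29.7, 31.3 and 16.0 CPM in Cre-positive and 34.3, 32.9 and 40.5 CPM in Cre-negative replicates 1, 2 and 3. Here all 3 Cre-positive libraries lay below all controls, as they did for 3 of the 9 genes, against 13.8% of all genes tested. Dut differed by -0.48 on the log2 scale (SE 0.24, 95% interval -1.04 to 0.08, edgeR adjusted p = 0.324). This value was -0.24 (SE 0.10) without Cre-positive replicate 3, where the unadjusted p was 0.0489 and the edgeR adjusted p 0.257.

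Tk1 (ENSMUSG00000025574, chromosome 11, 117815526 to 117826092, minus strand, 7 exon blocks), the thymidine kinase of dividing cells, had 43.0, 46.8 and 24.3 CPM in Cre-positive and 47.5, 42.5 and 50.5 CPM in Cre-negative replicates 1, 2 and 3. Replicates 1 and 2 lay within the control range. Tk1 had a log2 fold change of -0.30 by edgeR (SE 0.23, 95% interval -0.83 to 0.23, adjusted p = 0.499), against -0.06 (SE 0.09) without replicate 3. Of its exon length, 1.597% is shared with Afmid on the other strand.

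The mitochondrial kinases varied less between libraries of the same group. Dguok (ENSMUSG00000014554, chromosome 6, 83480217 to 83506969, minus strand, 6 exon blocks), the deoxyguanosine kinase gene, had 8.61, 8.76 and 8.17 CPM in Cre-positive and 11.7, 11.0 and 10.9 CPM in Cre-negative replicates 1, 2 and 3. The groups did not overlap, and the gap between them was wider than the range within either. The means were 8.51 ± 0.305 and 11.2 ± 0.444 CPM (SD, n = 3 each). On the log2 scale Dguok differed by -0.40 (SE 0.10, 95% interval -0.62 to -0.17, unadjusted p = 0.00460), which did not pass after adjustment over all genes (edgeR adjusted p = 0.128). Leaving out each library in turn gave -0.42 to -0.36, with -0.37 (SE 0.11, edgeR adjusted p = 0.124) without Cre-positive replicate 3, and the adjusted p ranged from 0.0793 to 0.394 over all 14 alternatives.

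Tk2 (ENSMUSG00000035824, chromosome 8, 104226691 to 104248558, minus strand, 10 exon blocks), the mitochondrial thymidine kinase gene, had 13.5, 14.1 and 13.2 CPM in Cre-positive and 14.8, 15.2 and 14.8 CPM in Cre-negative replicates 1, 2 and 3. These groups did not overlap either, with a smaller difference. The edgeR fit gave -0.14 on the log2 scale (SE 0.08, 95% interval -0.33 to 0.05, adjusted p = 0.392) and -0.12 (SE 0.09) without Cre-positive replicate 3.

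Dck (ENSMUSG00000029366, chromosome 5, 88764996 to 88783281, plus strand, 7 exon blocks), the deoxycytidine kinase gene, had 30.6, 32.4 and 23.4 CPM in Cre-positive and 36.1, 33.1 and 31.7 CPM in Cre-negative replicates 1, 2 and 3. The groups overlapped by a single library. Dck had a log2 fold change of -0.22 by edgeR (SE 0.13, 95% interval -0.53 to 0.08, adjusted p = 0.389), and -0.10 (SE 0.08) without Cre-positive replicate 3.

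**Figure D3:**
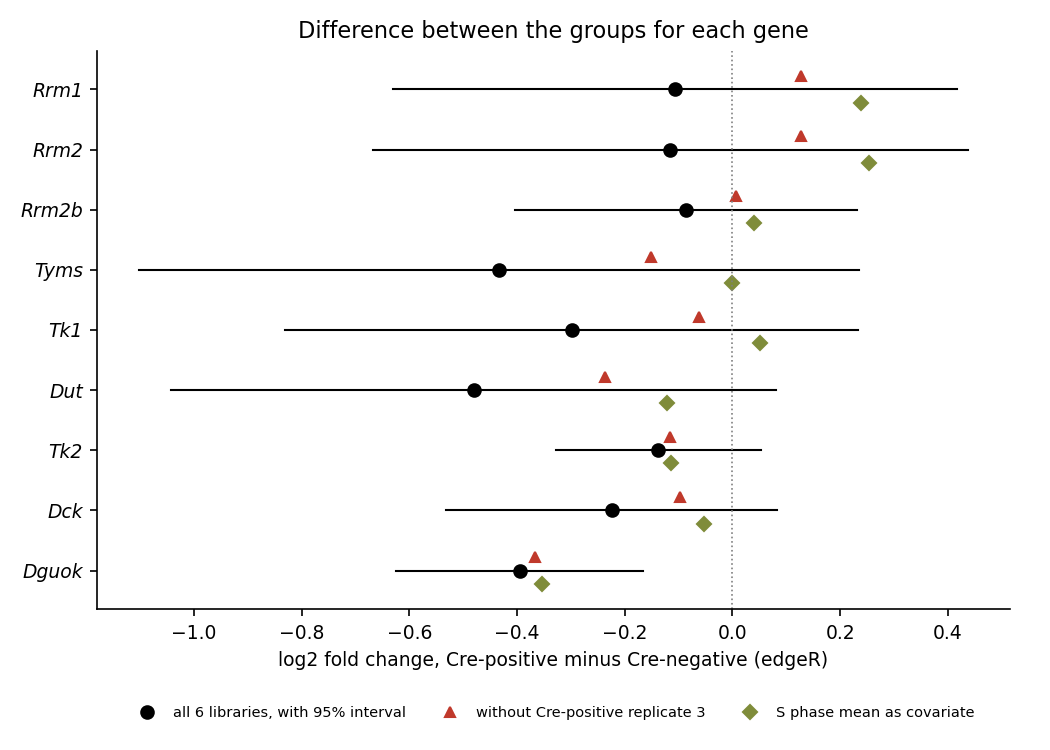
The log2 fold change of each gene from edgeR with its 95% interval (circles and lines), beside the value without Cre-positive replicate 3 (triangles) and with the mean log2 CPM of the S phase list as a covariate (diamonds). All 9 circles lie below 0, and Dguok is the only gene whose interval does not reach it. The 3 values lie closest together for Tk2 and Dguok.

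The 9 genes thus differed in how far Cre-positive replicate 3 departed from replicates 1 and 2. Its level was 0.459-fold the geometric mean of these for Tyms, 0.526-fold for Dut, 0.531-fold for Rrm2, 0.543-fold for Tk1 and 0.549-fold for Rrm1. It was 0.743-fold for Dck and 0.811-fold for Rrm2b, and 0.942-fold and 0.955-fold for Dguok and Tk2. The order separates the genes known for expression in S phase from the rest. The share of thymidine kinase transcripts per kb from Tk2 was 54.0% in that library and 38.8% to 43.6% in the other 5. The share of Dguok among Dck and Dguok transcripts was 32.9% there, 28.3% and 27.6% in Cre-positive replicates 1 and 2, and 31.3% to 32.6% in the Cre-negative libraries.

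**Figure D4:**
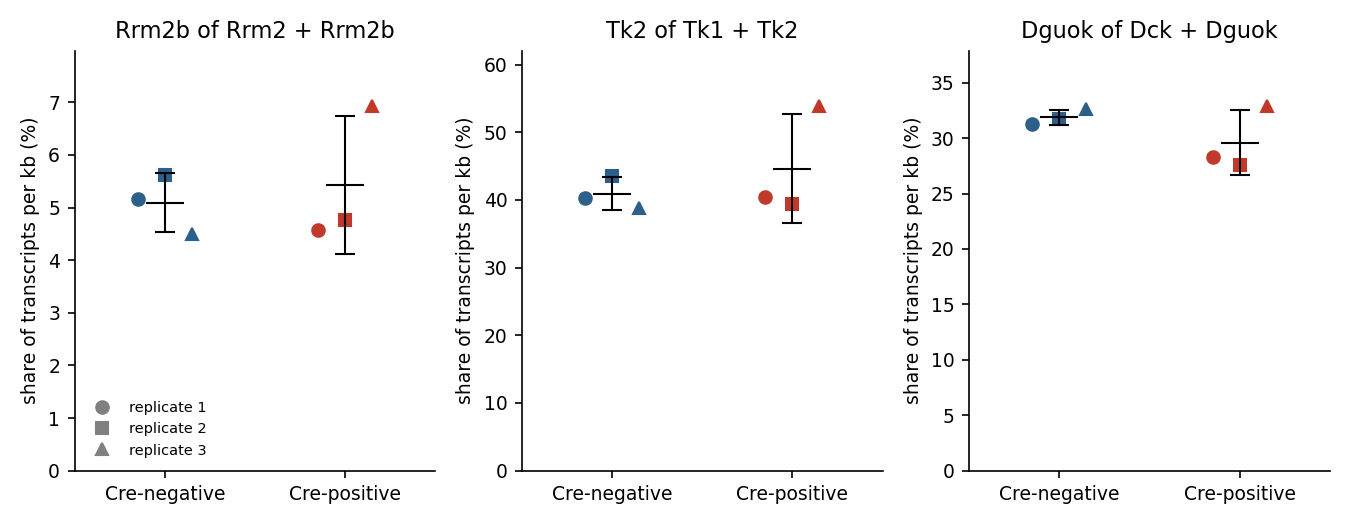
Share of 1 gene of a pair in the summed CPM per kb of both, in percent, for each library (points, with a shape per replicate number) and as mean ± SD of 3 libraries. For Rrm2b and Tk2 the highest point is Cre-positive replicate 3, at 6.94% and 54.0%.

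With the mean of the S phase list as a covariate, no gene of the 9 passed the adjusted threshold either, against 166 of 15525 genes tested. That mean was 4.31 in Cre-positive replicate 3 and 4.96 to 5.17 in the other libraries, so the covariate mostly sets that library apart. Rrm1 then stood at 0.24 on the log2 scale (SE 0.06, unadjusted p = 0.00697, edgeR adjusted p = 0.147) and Rrm2 0.25 (SE 0.06, unadjusted p = 0.00511, edgeR adjusted p = 0.133), both with the sign turned. Tyms had 0.00 (SE 0.10), Tk1 0.05 (SE 0.07), Dut -0.12 (SE 0.10) and Dguok -0.35 (SE 0.11, edgeR unadjusted p = 0.0169, adjusted p = 0.213). No share of all genes at an unadjusted p under 0.05 is given for this fit. Measured against the S phase list within each library, Rrm1 stood 2.01, 2.07 and 1.87 above it in log2 CPM in Cre-positive replicates 1, 2 and 3, against 1.79, 1.81 and 1.85 in the controls. Rrm1 was the 1 gene of the 9 whose groups did not overlap on this scale. Of all genes tested 23.3% were higher in this way, as were 3 of the 27 S phase genes themselves.

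By the rule of closest pattern, the genes whose log2 CPM was most like that of Rrm2 over the 6 libraries were Rrm1 (Pearson r = 0.999), Gm15163 (0.996), Serpinb3c (0.995), Smc2, a chromosome condensation gene (0.994), and Cdk1, the mitotic kinase gene (0.993). Without Cre-positive replicate 3, which lay far from the rest, the value for Rrm1 was 0.995 and for Smc2 and Cdk1 0.946 and 0.947. For Rrm2b they were Armc1 (0.996), C030037D09Rik (0.995), Gm2308 (0.989), Hist1h4d (0.987) and Phtf1os (0.985). These are descriptions over 6 libraries chosen as the highest of 15525 genes, and carry no test.

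The other genes of nucleotide supply were taken as 8 lists of 80 genes in all, of which 74 were tested. By edgeR 0 rose and 0 fell, with 5 higher and 5 lower at an unadjusted p under 0.05. Over all genes 10.3% and 8.48% were higher and lower at that limit, so these counts are no larger than the background. Of the 74, 44 had a log2 fold change below 0, against 51.0% of all genes. In nucleotide breakdown and pool cleaning, 13 of 16 genes were tested with a median of -0.09. The dCTP-cleaving enzyme gene Dctpp1 had -0.38 (SE 0.13), the nucleotidase gene Nt5c3 0.45 (SE 0.16) and Nudt1, whose product destroys oxidised purine nucleotides, -0.27 (SE 0.11). Among 10 of 11 nucleotide kinases tested (median 0.03), Nme2 had 1.0 (SE 0.28) at 1.27 ± 0.102 against 0.630 ± 0.194 CPM. Its counts are uncertain, since Gm20390 on the same strand covers 48.9% of its exon length. The UMP-CMP kinase gene Cmpk1 had 0.27 (SE 0.09) and Nme6 -0.21 (SE 0.11).

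In the folate cycle that feeds thymidylate synthase, all 10 genes were tested (median -0.03), with Mthfd1 at -0.30 (SE 0.09), the serine hydroxymethyltransferase gene Shmt2 at -0.33 (SE 0.12) and the folate carrier gene Slc19a1 at 0.20 (SE 0.09). All 5 pyrimidine synthesis genes were tested (median -0.03): Umps, which makes UMP, had -0.28 (SE 0.09), and the CTP synthase genes Ctps2 and Ctps had 0.19 and -0.04. Of the 13 purine synthesis genes (median -0.06), the phosphoribosyl pyrophosphate synthetase gene Prps1 had 0.46 (SE 0.12, unadjusted p = 0.00640, edgeR adjusted p = 0.141), Impdh1 0.22 and Atic -0.28. The 6 salvage genes (median 0.01) included Uckl1 at 0.20, Uck1 at -0.18 and Aprt at 0.12. Among 6 of 7 nucleoside and nucleotide transporters tested (median 0.02), the concentrative carrier gene Slc28a3 had 0.64 (SE 0.19, edgeR adjusted p = 0.170), the equilibrative carrier gene Slc29a1 -0.32 (SE 0.14) and Slc29a3 -0.16. For mitochondrial DNA maintenance, 11 of 12 genes were tested (median -0.08), with the polymerase subunit gene Polg2 at -0.26 (SE 0.12), the ADP/ATP carrier gene Slc25a4 at -0.22 and the helicase gene Twnk at -0.11. The value for Dguok thus lay below each of the 3 named genes of that list, a difference that was not tested.

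Of 13 regulators of ribonucleotide reductase and thymidine kinase, 0 rose and 0 fell by edgeR, with a median of -0.04. At an unadjusted p under 0.05, 2 were higher and 2 lower, against 10.3% and 8.48% of all genes. The S phase list had 27 of 27 log2 fold changes below 0, against 51.0% of all genes. Its median was -0.28, close to that of the 9 genes. Of the 27, 0 passed the adjusted threshold and 5 were lower at an unadjusted p under 0.05, against 8.48% of all genes. The lowest p-values of the list were those of Gins2 (-0.56, SE 0.18), Pola1 (-0.50, SE 0.17) and Prim1 (-0.34, SE 0.13), all of the replication fork. For Gins2, 67.3% of the exon length is shared with Gse1 on the other strand. Without Cre-positive replicate 3, 23 of the 27 were below 0 (50.5% of all genes), with a median of -0.11. The 16 genes of G2 and mitosis had a median of -0.22 with 0 past the threshold, and Bub1b, Mki67 and Bub1 had -0.44, -0.32 and -0.26.

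Sex was inferred from Y-linked transcripts and Xist after the data had been seen, which gave 2 male and 1 female Cre-positive and 1 male and 2 female Cre-negative libraries. Within males, the Cre difference in log2 CPM was 0.27 for Rrm1, 0.31 for Rrm2, 0.08 for Tk1, 0.05 for Tyms and -0.11 for Dut. Within females it was -0.81, -0.87, -1.01, -1.36 and -1.21 for the same genes. Dguok had -0.33 in males and -0.46 in females, and Tk2 -0.14 and -0.17, so that these values lay below 0 in either sex. Rrm2b had 0.03 and -0.31, and Dck -0.07 and -0.53. For Rrm1, Rrm2 and Tk1 the directions were opposite with no overlap within either sex, as for 20.8% of all genes. Each of these comparisons sets 2 libraries against a single one: the only Cre-positive female is Cre-positive replicate 3, and the only male control is Cre-negative replicate 2, which was the lowest control for these 3 genes. Sex and those libraries cannot be told apart, and the difference between the sexes was not tested. With sex as a covariate, the log2 fold changes of the 9 genes had a median of -0.30 and 0 passed the adjusted threshold.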

How the data were processed

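Per the file headers, the deposited values are raw counts of reads per gene, not normalized, in 1 column for each library. Per the submitters' processing notes, GSNAP aligned the reads to mm10 and featureCounts counted them. The strand setting and tool versions were not given in the sources used here. Symbols were matched by Ensembl identifier for 37607 of 38924 genes. Genes kept by filterByExpr (minimum count 10; 15525 genes) were scaled by TMM and tested with edgeR 4.0.16 in R 4.3.3 (glmQLFit, two-sided, Benjamini-Hochberg over all genes tested, threshold 0.05, no covariate). CPM uses the TMM-scaled library sizes. The 9 genes and the lists were chosen with earlier results of these data known. The named genes were the 9, up to 3 of each pathway list with the smallest p, and the 5 closest in pattern to Rrm2 and to Rrm2b; of the other cell types the most abundant marker is named, and markers that passed the threshold were named after their values were seen. Alternatives were DESeq2 1.42.0 (size factors, Wald test), total count scaling, limma-voom (limma 3.58.1), 2 other filters, sex or the S phase mean as a covariate, and leaving out each library. The exon length in the authors' deposited table gave levels per kb. Intervals at the 95% level are per gene and not adjusted. Pnp, Mpv17 and Flg could not be matched in the table, and genes under the count filter were not tested.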

Additional observations from a re-analysis of the deposited data

Results flagged for a closer look

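For Rrm1, Rrm2 and Tk1 both male Cre-positive libraries lay above the male control, and the female one lay below both female controls. The Cre difference in log2 CPM, males minus females, was 1.08 for Rrm1, 1.18 for Rrm2 and 1.08 for Tk1. Of all genes tested 20.8% had opposite directions in this way, in 1 order or the other. The difference was not tested. The female value rests on Cre-positive replicate 3 alone, whose low level of these genes had been seen before the libraries were split by sex, and the male value rests on Cre-negative replicate 2 as the only control, so sex and those libraries cannot be told apart.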

How the results depend on the processing

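Of the 9 genes, 0 rose and 0 fell under each of the 14 alternatives. The numbers over all genes, 63 higher and 17 lower, changed to 559 and 288 with the DESeq2 Wald test and 104 and 38 with no filter. They were 34 and 8 with sex as a covariate and 130 and 36 with the S phase mean as a covariate. Total count scaling gave 27 higher, and the median log2 fold change of all genes was then -0.12. Leaving out 1 library gave 0 to 288 higher and 0 to 134 lower, with the most without Cre-positive replicate 3; the cause was not tested. With the S phase mean as a covariate the sign turned for Rrm1 (0.24), Rrm2 (0.25), Rrm2b (0.040), Tk1 (0.050), Ctps (0.067), Slc25a4 (0.0012), Mki67 (0.054) and Bub1 (0.069). Without Cre-positive replicate 3 it turned for Rrm1, Rrm2, Rrm2b, Ctps and the Rrm2b share. Leaving out 1 library, Rrm1 ranged from -0.26 to 0.13, Rrm2 from -0.29 to 0.13, Rrm2b from -0.18 to 0.0068, Ctps from -0.096 to 0.049 and the share from -0.424 to 0.756 percentage points. Of 601 gene values under an alternative, for 43 genes, 579 kept direction and side of the threshold. No paired analysis was possible because the labels give the groups no replicate number in common. Mdm2 passed the threshold with the DESeq2 Wald test (0.54, adjusted p = 0.000294), and by edgeR with no filter (adjusted p = 0.0497), with the S phase mean as a covariate (0.0456) and without Cre-positive replicate 3 (0.0276). Cdkn1a (adjusted p = 0.0296) and Slc28a3 (0.0371) passed with the DESeq2 Wald test. Rnaseh2b, which fell by edgeR (-2.34, adjusted p = 0.0102), missed the threshold without Cre-positive replicate 2 (-2.30, edgeR adjusted p = 0.0508) and without Cre-negative replicate 1, 2 or 3 (-2.33, -2.36 and -2.33, edgeR adjusted p = 0.124, 0.0841 and 0.103). Rrm2b at 132 to 239 counts has the least depth of the 9.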
